A study of Mus musculus with 18 samples.

Results

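The genes described here are 35 targets and partners of ATF4, the transcription factor of the integrated stress response, given as a list of gene names that was drawn up with earlier results of these data known. They were 35 of the 50600 gene identifiers counted, and 34 of them were among the 13939 genes with enough counts to be tested. Slc7a3, a transporter of cationic amino acids, was not tested because it held 0 to 7 counts per library. The cells were C2C12, a line of mouse myoblasts that, once deprived of growth factors, leaves the cell cycle and forms multinucleate myotubes. By the labels, stable lines carried px459-Mapk6sg and were depleted of ERK3, carried px459-Mk5sg and were depleted of MK5, or carried a control plasmid. Plasmid px459 encodes the Cas9 nuclease together with a guide RNA, ERK3, the product of Mapk6, is an unusual member of the MAP kinase family, and MK5, the product of Mapkapk5, is a protein kinase that binds it. Every line was sequenced after 2 days in differentiation medium (DM2) and in growth medium (GM) with no treatment, with 3 libraries in each of 6 groups and 18 in all. The labels do not say whether libraries of a group came from separate cultures, nor whether a line was 1 clone or a pool, so p-values refer to the spread among these libraries, which may be technical.

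In the integrated stress response, kinases that sense amino acid shortage, unfolded proteins, double-stranded RNA or haem deficiency phosphorylate the translation factor eIF2. General protein synthesis then falls while the Atf4 mRNA is translated more, so that ATF4 protein can rise without its mRNA. ATF4 pairs with C/EBP proteins on a DNA element called CARE (C/EBP-ATF response element) and switches on amino acid transporters, enzymes of amino acid and folate metabolism, and regulators such as CHOP (Ddit3) and TRIB3. Some targets close the loop, since the GADD34 protein (Ppp1r15a) helps to remove the phosphate from eIF2. In muscle the pathway is known from starvation, mitochondrial stress and the differentiation of myoblasts.

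The CARE motif is shown first because it is the element by which ATF4 is known to find its targets. The letters TGATGNAA, read on both strands, were searched in RefSeq promoter windows of 300 bases (250 before and 50 after an annotated start, GRCm38.p6). Of the 30 members with a window 11 held the motif (36.7%), against 1219 of 27025 genes in the whole table (4.51%). A match is a description and not a bound site. The 8 members below are those with a match whose values are given library by library further on. Each is printed on the strand of its gene with 16 bases on either side, and capitals mark the motif.
Asns, chr6:7693209-7693248, minus strand: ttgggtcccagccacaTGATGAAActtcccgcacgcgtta
Chac1, chr2:119351033-119351072, plus strand: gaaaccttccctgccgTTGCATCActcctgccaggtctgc
Trib3, chr2:152344023-152344062, minus strand: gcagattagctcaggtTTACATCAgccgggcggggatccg
Slc7a11, chr3:50443637-50443695, minus strand: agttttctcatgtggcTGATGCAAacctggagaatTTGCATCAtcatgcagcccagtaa
Atf3, chr1:191183420-191183459, minus strand: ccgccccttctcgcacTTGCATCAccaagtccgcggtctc
Nupr1, chr7:126625557-126625596, minus strand: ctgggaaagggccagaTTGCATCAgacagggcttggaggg
Pck2, chr14:55540147-55540186, plus strand: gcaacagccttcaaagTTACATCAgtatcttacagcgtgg
Slc1a4, chr11:20332694-20332733, minus strand: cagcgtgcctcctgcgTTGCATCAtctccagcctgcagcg

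The other members with a match were Jdp2, Pycr1 and Vldlr. Slc7a11 held the motif 2 times in opposite orientations, 66 and 47 bases before its start. The match of Asns began 23 bases before the annotated start and that of Trib3 14 bases after it. No match in a window says only that these letters were not in it.

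**Figure D1:**
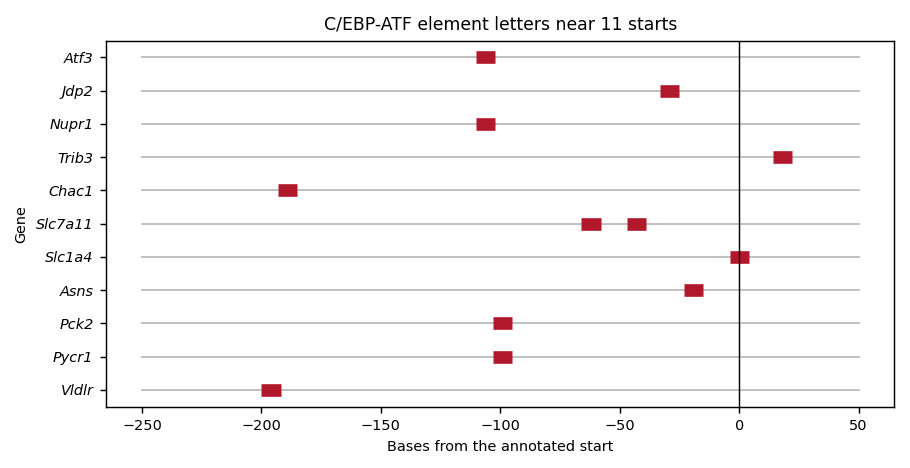
Position of each CARE motif match relative to the annotated start of the gene, in bases, for the 11 members with a match in their RefSeq window; each mark is 1 match. The matches run from 200 bases before the start in Vldlr to 14 bases after it in Trib3.

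Each library had between 17.5 and 23.4 M counts in genes (M, 1e6), and values below are counts per 1e6 (CPM) with library sizes scaled by the TMM method. Amounts given with ± are log2 fold changes with their standard error (SE). Tests were edgeR's quasi-likelihood F tests over all tested genes, and a gene with a Benjamini-Hochberg adjusted p under 0.05 was called. Mapk6 stood at 116, 96.8 and 136 CPM in ERK3-depleted and 219, 207 and 204 CPM in control libraries at DM2, a log2 fold change of -0.86 (adjusted p = 2.18e-05). In GM it stood at 115, 105 and 133 CPM in ERK3-depleted and 150.4, 119 and 124 CPM in control libraries and was not called (log2 fold change -0.15, adjusted p = 0.464). Mapkapk5 was counted at only 0.58 to 1.55 CPM in any library and was called in the MK5-depleted line at DM2 alone (log2 fold change -0.68, adjusted p = 0.0443, against -0.55 and adjusted p = 0.232 in GM). In the deposited TPM it stood at 49.1 ± 8.12 in MK5-depleted and 69.2 ± 3.19 in control libraries at DM2, and at 33.3 ± 2.40 in MK5-depleted and 55.5 ± 3.46 in control libraries in GM (SD, n = 3), without overlap in either medium. All 10 markers of myoblasts and muscle cells were tested, and their summed level was 3776 to 5070 CPM over all DM2 libraries and 1199 to 1950 CPM over all GM libraries. Des was the largest part of these sums. At DM2 it averaged 2280, 2120 and 1350 CPM in the ERK3-depleted, MK5-depleted and control lines, and Cdh15 and Tnnt1 were also higher in the depleted lines. The other markers were lower there at DM2, among them Myog (375, 476 and 593 CPM) and Mymk (96.5, 144 and 349 CPM). None of 5 endothelial markers was tested, with Tie1 and Emcn at 0. Of 6 markers of macrophages and blood 2 were tested, with a summed level of 1.11 to 2.98 CPM and with Adgre1 and Hbb-bt at 0. Summed levels of adipocyte markers (2 of 5 tested) reached 10.2 CPM and those of neural and glial markers (2 of 5) 3.35 CPM. In bulk samples such as these, fewer cells of a type and less RNA per cell cannot be told apart.

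Counts were taken from the reverse strand only, and for some members the strand matters. Slc7a11 had 21 to 143 counts per library, and counting without strand gave 4.54 to 45.9 times as many. Genes on the other strand overlap it, but the source of these added counts was not tested. Opposite-strand genes also overlapped Slc6a9, Aldh1l2 and Cebpb. Vldlr had only 3 to 55 counts per library and Atf3 11 to 429, so their folds carry wide errors.

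In GRCm38 with GENCODE M21, Atf4 (ENSMUSG00000042406.7) lies at chr15:80255184-80257541 on the plus strand and Ddit3 (ENSMUSG00000025408.15) at chr10:127290774-127296288 on the plus strand. Asns (ENSMUSG00000029752.12) lies at chr6:7675169-7693254 and Phgdh (ENSMUSG00000053398.11) at chr3:98313170-98339990, both on the minus strand. Per transcript length, in the deposited TPM (transcripts per 1e6), the most abundant member by its median over the 18 libraries was Atf4 itself at 449.7 TPM. Eif4ebp1, which holds back cap-dependent translation, followed at 190.4 TPM, then the transcription factor Atf5 at 164 TPM, the small stress protein Nupr1 at 149 TPM, and the serine synthesis enzymes Psat1 and Phgdh at 127 and 126 TPM. At the other end stood Atf3, a stress-induced repressor, at 3.56 TPM, the cystine carrier Slc7a11 at 0.735 TPM, the lipoprotein receptor Vldlr at 0.25 TPM and Slc7a3 at 0.135 TPM.

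**Figure D2:**
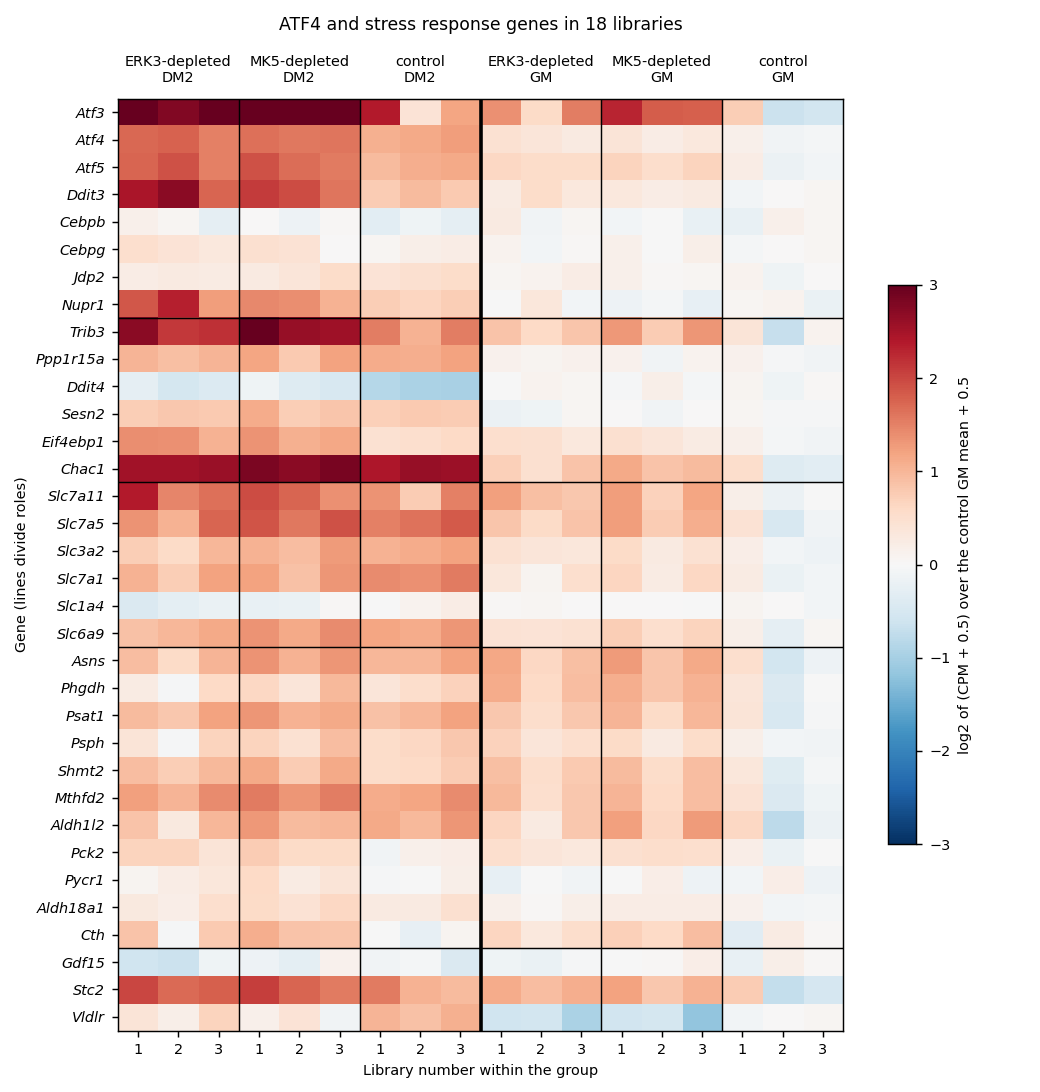
Level of each tested member (rows, grouped by role) in each of the 18 libraries (columns), as the log2 ratio of its CPM to the mean of the control GM libraries with 0.5 CPM added to both, on a colour scale that ends at 3 in either direction. Most members are higher in the DM2 libraries of every line, and in GM most enzymes are higher in depleted than in control libraries.

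In growth medium, members of the list were more abundant in both depleted lines than in control, and among the roles the enzymes of amino acid and one-carbon metabolism had the highest median log2 fold change in both lines. In the ERK3-depleted line 15 of the 34 tested members rose and 1 fell, where 6.79% of all tested genes were called (3.72% higher and 3.06% lower). The MK5-depleted line had 20 members higher and 1 lower, where 8.45% of all genes were called (4.71% higher and 3.74% lower). Called members made up 47.1% of the list for ERK3 and 61.8% for MK5, above both backgrounds. As the list was drawn up with earlier results of these data known, these shares are descriptions and not a test of enrichment. The members' median log2 fold change was 0.42 in the ERK3-depleted line, against -0.01 over all tested genes, and 0.49 in the MK5-depleted line, against -0.01. Both comparisons used the same 3 control libraries, so they are given side by side and not as support for each other.

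Of the 11 enzymes 7 rose in the ERK3-depleted line (median log2 fold change 0.61) and 8 in the MK5-depleted line (0.83). Asns, which makes asparagine, stood at 122, 83.7 and 102 CPM in ERK3-depleted, 133, 97.1 and 119.6 CPM in MK5-depleted and 76.8, 37.2 and 48.9 CPM in control GM libraries. All 6 depleted libraries lay above all 3 control libraries. The log2 fold change was 0.92 ± 0.20 (SE, adjusted p = 0.0183) for ERK3 and 1.10 ± 0.20 (adjusted p = 0.00642) for MK5. Phgdh, the first enzyme of serine synthesis, stood at 90.8, 64.2 and 79.4 CPM in ERK3-depleted, 90.3, 75.6 and 86.9 CPM in MK5-depleted and 53.6, 30.8 and 41.3 CPM in control libraries. Again no depleted library overlapped control, with log2 fold changes of 0.90 ± 0.19 (adjusted p = 0.0168) for ERK3 and 1.01 ± 0.19 (adjusted p = 0.00704) for MK5. Psat1, the next enzyme of that path, had 239, 195 and 236 CPM in ERK3-depleted, 274, 203 and 272 CPM in MK5-depleted and 176, 96.9 and 133 CPM in control libraries, with log2 fold changes of 0.72 ± 0.17 and 0.89 ± 0.17 (adjusted p = 0.0227 and 0.00777).

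The mitochondrial folate enzymes were higher too. Shmt2, which passes the carbon of serine to folate, stood at 166, 128 and 155 CPM in ERK3-depleted, 173, 130.5 and 169 CPM in MK5-depleted and 113, 69.4 and 85.1 CPM in control libraries. Mthfd2, the next step, stood at 117, 85.4 and 105 CPM in ERK3-depleted, 121, 91.1 and 113 CPM in MK5-depleted and 80.5, 44.1 and 54.6 CPM in control libraries. Neither gene overlapped between depleted and control libraries, and both were called in both lines (Shmt2 log2 fold change 0.75 ± 0.16 for ERK3 and 0.83 ± 0.16 for MK5, Mthfd2 0.78 ± 0.18 and 0.86 ± 0.18). Pck2, mitochondrial phosphoenolpyruvate carboxykinase, rose by 0.40 ± 0.11 in the ERK3-depleted and 0.51 ± 0.11 in the MK5-depleted line. Psph, the last enzyme of serine synthesis, was called in the ERK3-depleted line (log2 fold change 0.54 ± 0.16, adjusted p = 0.0477). In the MK5-depleted line Psph was called only when library number was a block (0.47, adjusted p = 0.0120). Aldh1l2, a mitochondrial folate enzyme, and Cth, which makes cysteine, were called in the MK5-depleted line (1.10 ± 0.28 and 0.80 ± 0.21). With the block Aldh1l2 was called in the ERK3-depleted line too (0.65, adjusted p = 0.0325).

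Among the transporters 3 of 6 rose in the ERK3-depleted and 5 of 6 in the MK5-depleted line. Slc7a5, the light chain of the carrier of large neutral amino acids, stood at 143, 120.5 and 146 CPM in ERK3-depleted, 192, 137 and 173 CPM in MK5-depleted and 109, 57.6 and 75.0 CPM in control libraries. No depleted library reached down to control, with log2 fold changes of 0.76 ± 0.20 (adjusted p = 0.0312) for ERK3 and 1.06 ± 0.20 (adjusted p = 0.00659) for MK5. Slc3a2, its heavy chain, and Slc7a1, which carries cationic amino acids, were called in the MK5-depleted line (0.45 ± 0.12 and 0.52 ± 0.15). In the ERK3-depleted line both were called only with the library block (0.39, adjusted p = 0.0170, and 0.32, adjusted p = 0.0317). The glycine carrier Slc6a9 rose by 0.46 ± 0.12 in the ERK3-depleted and 0.66 ± 0.12 in the MK5-depleted line. Slc7a11 stood at 3.33, 2.51 and 2.36 CPM in ERK3-depleted, 3.35, 2.14 and 3.16 CPM in MK5-depleted and 1.33, 0.922 and 1.101 CPM in control libraries. It rose by 1.29 ± 0.33 and 1.37 ± 0.32, without overlap.

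Atf4 itself rose in both lines, 1.29-fold for ERK3 and 1.24-fold for MK5. Its mRNA stood at 476, 446 and 414 CPM in ERK3-depleted, 447, 405 and 427 CPM in MK5-depleted and 381, 319.8 and 331 CPM in control libraries. The groups did not overlap, and the log2 fold change was 0.37 ± 0.09 (adjusted p = 0.0211) for ERK3 and 0.31 ± 0.09 (adjusted p = 0.0374) for MK5. Atf5, a related factor, rose by 0.58 ± 0.11 and 0.62 ± 0.11. Ddit3, which encodes the pro-apoptotic factor CHOP, stood at 25.4, 31.6 and 26.9 CPM in ERK3-depleted, 26.9, 25.2 and 26.0 CPM in MK5-depleted and 20.3, 21.8 and 22.4 CPM in control libraries. Its libraries did not overlap, but the log2 fold changes of 0.38 ± 0.18 and 0.28 ± 0.18 were not called (adjusted p = 0.211 and 0.385).

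Atf3 stood at 3.49, 1.79 and 3.95 CPM in ERK3-depleted, 7.03, 4.90 and 4.85 CPM in MK5-depleted and 2.08, 0.483 and 0.551 CPM in control libraries. Only the MK5-depleted libraries all lay above control, and only that line was called (2.48 ± 0.55, adjusted p = 0.0140, against 1.60 ± 0.59 and adjusted p = 0.108 for ERK3). Trib3, a pseudokinase that restrains ATF4, stood at 7.78, 6.45 and 7.67 CPM in ERK3-depleted, 10.9, 7.28 and 11.1 CPM in MK5-depleted and 5.55, 2.33 and 4.41 CPM in control libraries. It was called in the MK5-depleted line (1.27 ± 0.28, adjusted p = 0.0124) and not in the ERK3-depleted line (0.85 ± 0.29, adjusted p = 0.0793). With the library block both were called in the ERK3-depleted line (Atf3 1.63, adjusted p = 0.0190, and Trib3 0.88, adjusted p = 0.00511). Chac1, which degrades glutathione, rose by 0.74 ± 0.18 in the ERK3-depleted line, whose libraries overlapped control, and by 1.05 ± 0.18 in the MK5-depleted line. Eif4ebp1 rose by 0.44 ± 0.11 and 0.37 ± 0.11. Of the secreted and surface proteins Stc2, a stress-induced hormone, rose by 1.12 ± 0.29 and 1.11 ± 0.29. Vldlr fell by 1.21 and 1.27 on the log2 scale, on at most 1.05 CPM.

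The spread between the control GM libraries bears on these counts. In the GM libraries numbered 2, 14 of the 34 members (7 of them enzymes) were lowest in all 3 lines, against 13.3% of all tested genes, and in those numbered 1, 13 members (6 of them enzymes) were highest, against 5.78%. For ERK3, leaving out ERK3-depleted GM library 1, or control GM library 2 or 3, left 0 members called, with 20, 18 and 19 members at an unadjusted p under 0.05 and a members' median log2 fold change of 0.41, 0.34 and 0.40. Leaving out ERK3-depleted GM library 3 left 9 called. For MK5, 0 members were called without control GM library 2 (22 at an unadjusted p under 0.05, median 0.42), 11 without control GM library 3, 9 without MK5-depleted GM library 1 and 8 without MK5-depleted GM library 3. On unscaled TPM with limma-trend 0 and 4 members were called for ERK3 and MK5 (15 at an unadjusted p under 0.05 for ERK3), with medians of 0.31 and 0.45. Summed muscle markers, which rise on differentiation, stood at 1703 to 1950 CPM in ERK3-depleted, 1558 to 1867 CPM in MK5-depleted and 1199 to 1433 CPM in control GM libraries, without overlap. Des made up most of these muscle sums, with means of 1325, 1234 and 977 CPM. Summed fibroblast markers (6 of 8 tested) stood at 836 to 897 CPM in ERK3-depleted, 850 to 1074 CPM in MK5-depleted and 601 to 832 CPM in control GM libraries. Col1a1 and Postn make up most of that sum and were higher in the depleted lines, whereas Dcn averaged 4.53, 3.45 and 11.3 CPM and Pdgfra 23.4, 22.4 and 31.5 CPM in the ERK3-depleted, MK5-depleted and control lines, and Dpt and Pi16 were also lower in the depleted lines. The part of either marker list in these results was not tested.

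**Figure D3:**
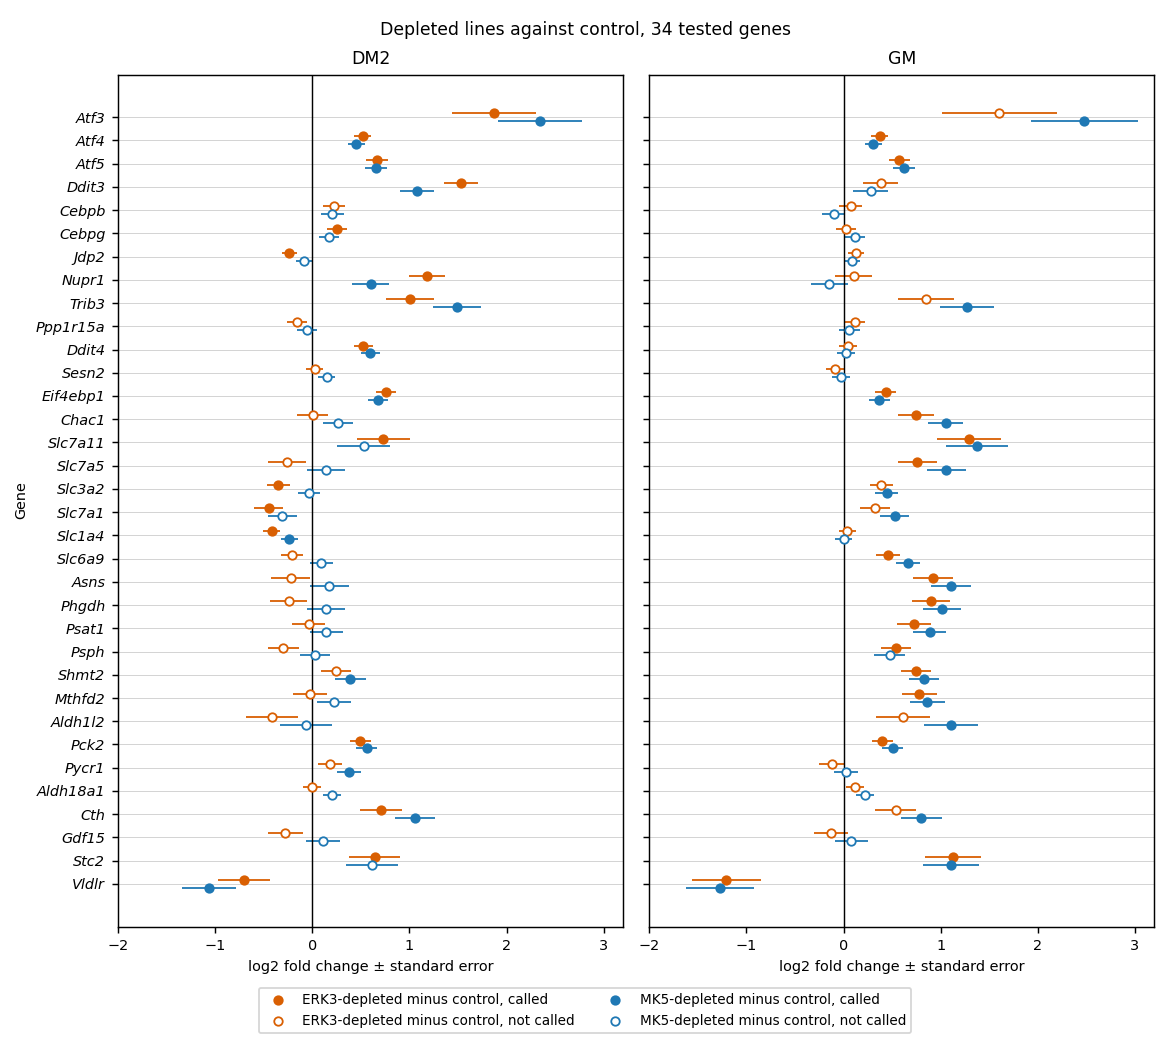
Log2 fold change of each tested member, depleted line over control, with its standard error, at DM2 on the left and in GM on the right; filled points were called and open points were not. In GM the enzymes and transporters lie mostly to the right of 0. At DM2 Atf3 lies furthest to the right in both lines, followed by Ddit3 for ERK3 and Trib3 for MK5.

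After 2 days of differentiation the largest rises over control were of transcription factors and regulators, among them Atf3, Ddit3 and Trib3. Other members of these roles were not called. Ddit3 was 2.88-fold higher in the ERK3-depleted and 2.11-fold higher in the MK5-depleted line than in control, while only 2 and 4 of the 11 enzymes were called. In the ERK3-depleted line 13 of 34 members rose and 5 fell, where 55.8% of all tested genes were called (28% higher and 27.8% lower). For the MK5-depleted line 12 rose and 2 fell, where 45.1% of all genes were called (22.2% higher and 22.9% lower). The share of members called, 52.9% for ERK3 and 41.2% for MK5, was thus no larger than that of all genes, while 38.2% and 35.3% of members rose, and their medians of 0.01 and 0.20 stood beside 0.01 and 0.00 over all genes. Both comparisons again shared their control libraries. On unscaled TPM, where the median of all genes itself shifted by -0.46 for ERK3 and -0.29 for MK5, 5 members were called higher and 17 lower for ERK3 and 6 higher and 3 lower for MK5, and the log2 fold changes of Atf4, Ddit4, Cebpg, Slc7a11 and Pck2 for ERK3, and of Pycr1 and the uncalled Asns for MK5, turned below 0.

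Of the 8 transcription factors 6 rose and 1 fell in the ERK3-depleted line (median log2 fold change 0.59), and 5 rose in the MK5-depleted line (0.53). Ddit3 stood at 119, 143 and 72.8 CPM in ERK3-depleted, 93.9, 85.3 and 66.2 CPM in MK5-depleted and 36.9, 41.9 and 37.3 CPM in control DM2 libraries. Every depleted library was above every control library, with a log2 fold change of 1.53 ± 0.18 (adjusted p = 5.81e-06) for ERK3 and 1.08 ± 0.17 (adjusted p = 0.000161) for MK5. Nupr1, a stress-induced chromatin protein, stood at 206, 287 and 136 CPM in ERK3-depleted, 154, 149 and 117 CPM in MK5-depleted and 94.1, 88.9 and 94.1 CPM in control libraries. It did not overlap either, with 1.18 ± 0.19 (adjusted p = 6.32e-05) for ERK3 and 0.60 ± 0.19 (adjusted p = 0.0146) for MK5. Atf3 stood at 18.2, 10.1 and 15.2 CPM in ERK3-depleted, 23.7, 18.5 and 18.5 CPM in MK5-depleted and 7.49, 1.53 and 2.97 CPM in control libraries, with 1.87 ± 0.43 (adjusted p = 0.00171) and 2.34 ± 0.43 (adjusted p = 0.000476).

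Atf4 stood at 1134, 1176 and 986 CPM in ERK3-depleted, 1079, 1026 and 1045 CPM in MK5-depleted and 717, 757 and 826 CPM in control libraries. No depleted library overlapped control, and the log2 fold change was 0.52 ± 0.09 (adjusted p = 9.87e-05) for ERK3 and 0.45 ± 0.09 (adjusted p = 0.000562) for MK5. Atf5 rose by 0.67 ± 0.11 and 0.66 ± 0.11. Cebpg, a dimer partner of ATF4, rose (0.26 ± 0.10) and Jdp2, an AP-1 repressor, fell (-0.23 ± 0.08) in the ERK3-depleted line only by call, and the difference between the lines was not called for either. Cebpb, another C/EBP partner, was called in no comparison and ranged from 72.8 to 108 CPM over all libraries.

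Of the 6 feedback and growth-control genes 3 rose in each line. Trib3 stood at 29.4, 19.5 and 20.6 CPM in ERK3-depleted, 42.9, 27.7 and 26.3 CPM in MK5-depleted and 12.8, 9.0 and 12.8 CPM in control libraries. Its groups did not overlap, with 1.01 ± 0.25 (adjusted p = 0.00227) for ERK3 and 1.49 ± 0.25 (adjusted p = 0.000190) for MK5. Ddit4, an inhibitor of the growth kinase complex mTORC1, stood at 83.1, 69.7 and 75.5 CPM in ERK3-depleted, 91.6, 76.8 and 71.7 CPM in MK5-depleted and 55.3, 52.3 and 51.1 CPM in control libraries. It rose by 0.52 ± 0.10 and 0.60 ± 0.10, again without overlap. Eif4ebp1 stood at 259, 254 and 201 CPM in ERK3-depleted, 251, 205 and 219 CPM in MK5-depleted and 134, 138 and 149 CPM in control libraries, without overlap and with 0.76 ± 0.11 and 0.68 ± 0.11. The GADD34 gene Ppp1r15a, the mTORC1 inhibitor Sesn2 and Chac1 were called in neither line at DM2, and Chac1 stood at 42.6, 43.1 and 44.8 CPM in ERK3-depleted, 52.9, 49.0 and 54.5 CPM in MK5-depleted and 40.2, 45.9 and 44.1 CPM in control libraries.

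Asns stood at 104, 81.1 and 110.4 CPM in ERK3-depleted, 139.6, 112 and 136 CPM in MK5-depleted and 109, 109 and 126 CPM in control DM2 libraries. Its groups overlapped and it was not called in either line (log2 fold change -0.22 ± 0.20, adjusted p = 0.366, and 0.17 ± 0.20, adjusted p = 0.498). Of the 11 enzymes 2 were higher in the ERK3-depleted line, Pck2 (0.50 ± 0.11) and Cth (0.71 ± 0.21), and 4 in the MK5-depleted line, Pck2 (0.56 ± 0.11), Cth (1.06 ± 0.21), Shmt2 (0.39 ± 0.16) and the proline enzyme Pycr1 (0.38 ± 0.12). Pck2 stood at 135, 134 and 111 CPM in ERK3-depleted, 145, 126 and 127 CPM in MK5-depleted and 79.2, 93.4 and 96.7 CPM in control libraries, and only for Cth in the ERK3-depleted line and Shmt2 in the MK5-depleted line did the libraries of these genes overlap control. With the library block Psph (-0.32, adjusted p = 0.0272) and Aldh1l2 (-0.44, adjusted p = 0.0452) were called lower in the ERK3-depleted line.

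In the ERK3-depleted line 3 transporters fell at DM2. Slc3a2 stood at 153, 136 and 181 CPM in ERK3-depleted and 189.6, 199 and 210.3 CPM in control libraries (log2 fold change -0.35 ± 0.12, adjusted p = 0.0165). Slc7a1 stood at 77.6, 63.2 and 87.9 CPM in ERK3-depleted and 102, 98.9 and 111 CPM in control libraries (-0.45 ± 0.15, adjusted p = 0.0167). Slc1a4, a carrier of serine and other neutral amino acids, stood at 69.4, 76.4 and 82.4 CPM in ERK3-depleted and 94.0, 102 and 109 CPM in control libraries (-0.42 ± 0.09, adjusted p = 0.000489). For these genes every ERK3-depleted library was below every control library. In the MK5-depleted line Slc1a4 was also called lower (-0.23 ± 0.08), with overlapping libraries. Slc7a11 stood at 7.96, 3.97 and 4.57 CPM in ERK3-depleted and 3.62, 2.23 and 4.11 CPM in control libraries and was called higher for ERK3 (0.73 ± 0.27, adjusted p = 0.0296), also with overlap. Stc2 rose in the ERK3-depleted line (0.64 ± 0.27), and Vldlr fell in both (-0.70 ± 0.27 and -1.06 ± 0.28). Gdf15, a secreted stress hormone, was called in no comparison and ranged from 3.47 to 6.70 CPM.

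The DM2 libraries of the depleted lines also differed from control in how many of their reads fell outside genes, which was 5.55, 7.73 and 3.79% in ERK3-depleted, 3.96, 4.11 and 2.84% in MK5-depleted and 2.44, 2.65 and 3.05% in control DM2 libraries. The ERK3-depleted library with most such reads had the most Ddit3 and Nupr1, and the one with fewest had the least. With it as a covariate 6 members were called for ERK3 (Atf3, Atf4, Cth, Ddit3, Ddit4 and Eif4ebp1), with log2 fold changes of 0.78 for Ddit3 (adjusted p = 0.00389) and 0.37 for Atf4 (adjusted p = 0.0440). The other members lost their call, among them Nupr1 at 0.40 (adjusted p = 0.126) and Atf5 at 0.37 (adjusted p = 0.075). The 3 transporters that had fallen lost it too, with Slc3a2 at 0.00079, Slc7a1 at -0.10 and Slc1a4 at -0.30 (adjusted p = 0.998, 0.763 and 0.092). Without the 4 libraries with most such reads, which leaves 1 library in each depleted DM2 group that is assumed to vary like the others, 8 members were called, with Ddit3 at 0.91 (adjusted p = 0.000218) and Nupr1 at 0.55 (adjusted p = 0.00912). For MK5 the 2 values of Ddit3 were 0.85 and 0.79. Leaving out single libraries gave 10 to 14 calls for MK5 and 11 to 20 for ERK3, the 11 without ERK3-depleted DM2 library 1. Of 6 such fits each, Cebpg and Stc2 for ERK3 and Shmt2 for MK5 kept their call in 1. Vldlr for ERK3 and Slc1a4 for MK5 kept it in 2. Summed fibroblast markers stood at 2938 to 3153 CPM in ERK3-depleted, 2722 to 3365 CPM in MK5-depleted and 1726 to 2225 CPM in control DM2 libraries, with Thy1 at 0. Again Col1a1 and Postn carried the sum, whereas Dcn averaged 69.3, 51.3 and 88.5 CPM and Pdgfra 9.73, 8.48 and 15.95 CPM in the ERK3-depleted, MK5-depleted and control lines, with Dpt and Lum also lower and Pi16 higher in the depleted lines. Their part was not tested.

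**Figure D4:**
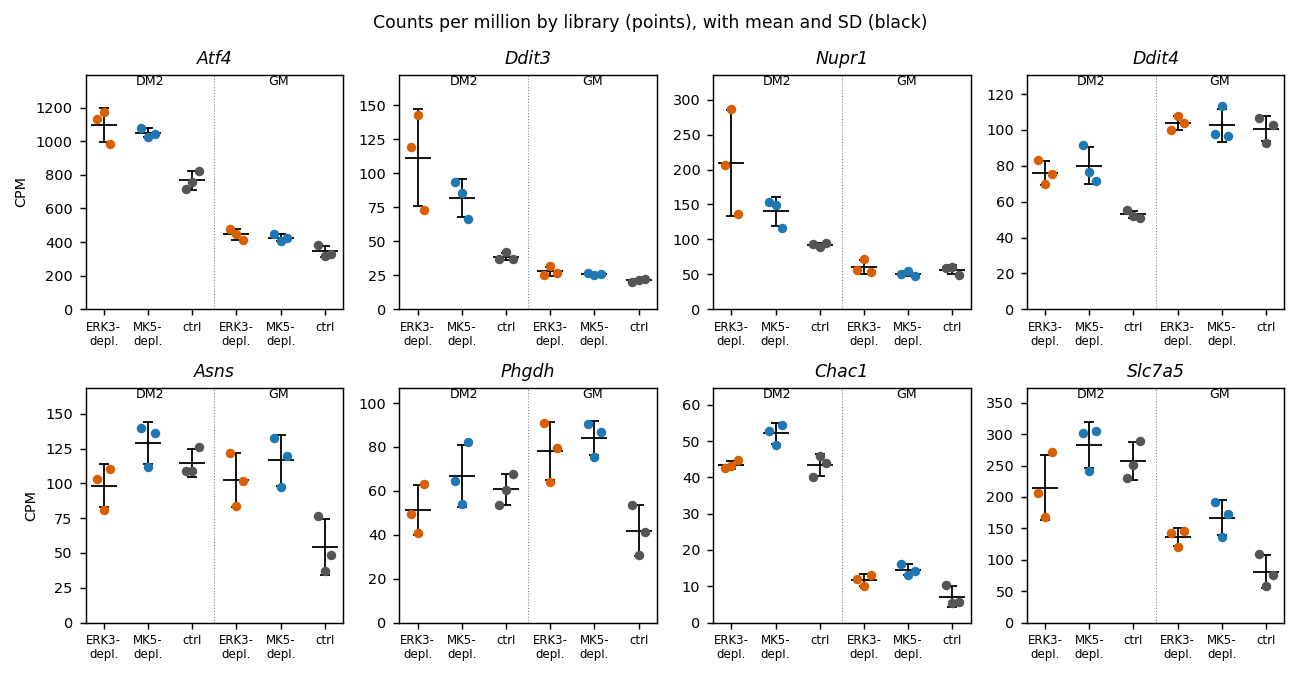
CPM of 8 members in the libraries of each line, at DM2 on the left and in GM on the right of each panel; points are libraries, and bars give the mean and SD (n = 3). Ddit3 and Nupr1 separate the depleted lines from control at DM2, and Asns, Phgdh and Slc7a5 separate them in GM.

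Most of the list changed between GM and DM2. Change on differentiation here means DM2 against GM, where the medium, the time in it and differentiation cannot be told apart. In the control line 26 of 34 members were higher at DM2 than in GM and 1 was lower, where 45.6% of all tested genes were called (22.5% higher and 23.1% lower). In the ERK3-depleted line 20 rose and 3 fell, where 55.1% of all genes were called (28.9% and 26.2%), and in the MK5-depleted line 21 rose and 1 fell, where 49.3% were called (24.6% and 24.8%). The members' median log2 fold change was 0.42 in the ERK3-depleted, 0.62 in the MK5-depleted and 0.94 in the control line, against 0.01, 0.00 and -0.02 over all genes. Each line was compared with its own GM libraries, so these 3 comparisons shared none. On unscaled TPM, where the median of all genes shifted by -0.27 for ERK3, the ERK3-depleted line had 10 members higher and 5 lower.

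Chac1 stood at 42.6, 43.1 and 44.8 CPM at DM2 and 12.0, 10.03 and 13.2 CPM in GM in the ERK3-depleted line, against 40.2, 45.9 and 44.1 CPM at DM2 and 10.4, 5.27 and 5.56 CPM in GM in the control line. At DM2 the libraries of these lines overlapped, while in GM all but 1 ERK3-depleted library lay above control. The log2 fold change on differentiation was 1.89 ± 0.17 in the ERK3-depleted, 1.84 ± 0.17 in the MK5-depleted and 2.63 ± 0.18 in the control line, the last being a 6.18-fold rise (adjusted p = 2.52e-09). Atf4 rose by 1.30 ± 0.09 in each depleted line and 1.16 ± 0.09 in control (adjusted p = 3.92e-09, 3.56e-09 and 1.05e-08). Trib3 rose by 1.67, 1.73 and 1.51 in the ERK3-depleted, MK5-depleted and control lines, Ppp1r15a by 0.89, 1.05 and 1.16, and Sesn2 by 0.88, 0.94 and 0.77. With the library block the proline enzyme Aldh18a1 was also called in the ERK3-depleted line (0.22, adjusted p = 0.0243). Ddit4 was the 1 member that fell in all 3 lines, with log2 fold changes of -0.45 in the ERK3-depleted, -0.36 in the MK5-depleted and -0.93 in the control line.

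The change on differentiation differed from that of control in 15 of 34 members for the ERK3-depleted line (3 with a larger and 12 with a smaller log2 fold change, where 28.6% of all genes were called, 14.6% larger and 14% smaller) and in 10 for the MK5-depleted line (2 and 8, where 18% were called, 8.54% larger and 9.48% smaller). Ddit3 responded more in both depleted lines, with log2 fold changes of 1.99 ± 0.18 in the ERK3-depleted, 1.65 ± 0.18 in the MK5-depleted and 0.85 ± 0.18 in the control line. The difference was 1.15 ± 0.25 (adjusted p = 0.00511) for ERK3 and 0.80 ± 0.25 (adjusted p = 0.0362) for MK5. Nupr1 responded more in the ERK3-depleted line, by 1.08 ± 0.27 (adjusted p = 0.00853), and Ddit4 fell less in both (0.48 ± 0.14 and 0.57 ± 0.14). Both differences use the same control libraries. On unscaled TPM, with a median of all genes at -0.40 and -0.28, 2 members had a larger and 19 a smaller response for ERK3, and 0 and 8 for MK5, and the difference of Ddit4 for ERK3 was 0.00 on that scale.

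The enzymes and transporters called here all responded less than in control. For ERK3 the response was smaller in 5 of 11 enzymes and 5 of 6 transporters (medians of -0.76 and -0.70), and for MK5 in 4 enzymes and 3 transporters (-0.45 and -0.70). Asns rose on differentiation in the control line by 1.08 ± 0.20 (adjusted p = 0.000327) and was called in neither depleted line. The difference for Asns was -1.14 ± 0.29 (adjusted p = 0.00913) for ERK3 and -0.93 ± 0.29 (adjusted p = 0.0334) for MK5. Phgdh fell on differentiation in the ERK3-depleted line (-0.61 ± 0.19) and rose in control (0.54 ± 0.19, overlapping libraries), a difference of -1.14 ± 0.27 (adjusted p = 0.00760), with -0.87 ± 0.27 for MK5. Slc7a5 rose by 0.66 ± 0.20 in the ERK3-depleted, 0.76 ± 0.20 in the MK5-depleted and 1.67 ± 0.20 in the control line, and the differences were -1.02 ± 0.28 and -0.92 ± 0.28. By arithmetic these differences equal the DM2 contrast minus the GM contrast, and so hold the higher GM levels of the depleted lines given above.

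With reads outside genes as a covariate, or without the 4 DM2 libraries with most such reads, 0 members were called for the ERK3 difference (9 and 12 at an unadjusted p under 0.05), with Ddit3 at 0.46 and 0.52 and Asns at -0.84 and -0.99. For MK5, 1 member was called without those 4 libraries. Leaving out 1 library gave 10 to 18 calls for ERK3. For MK5 it gave 1 without MK5-depleted GM library 3 or control GM library 2, 2 without MK5-depleted GM library 1, MK5-depleted DM2 library 1 or 2 or control DM2 library 3, 3 without control DM2 library 2 or control GM library 3, and 7 to 14 without any other.

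**Figure D5:**
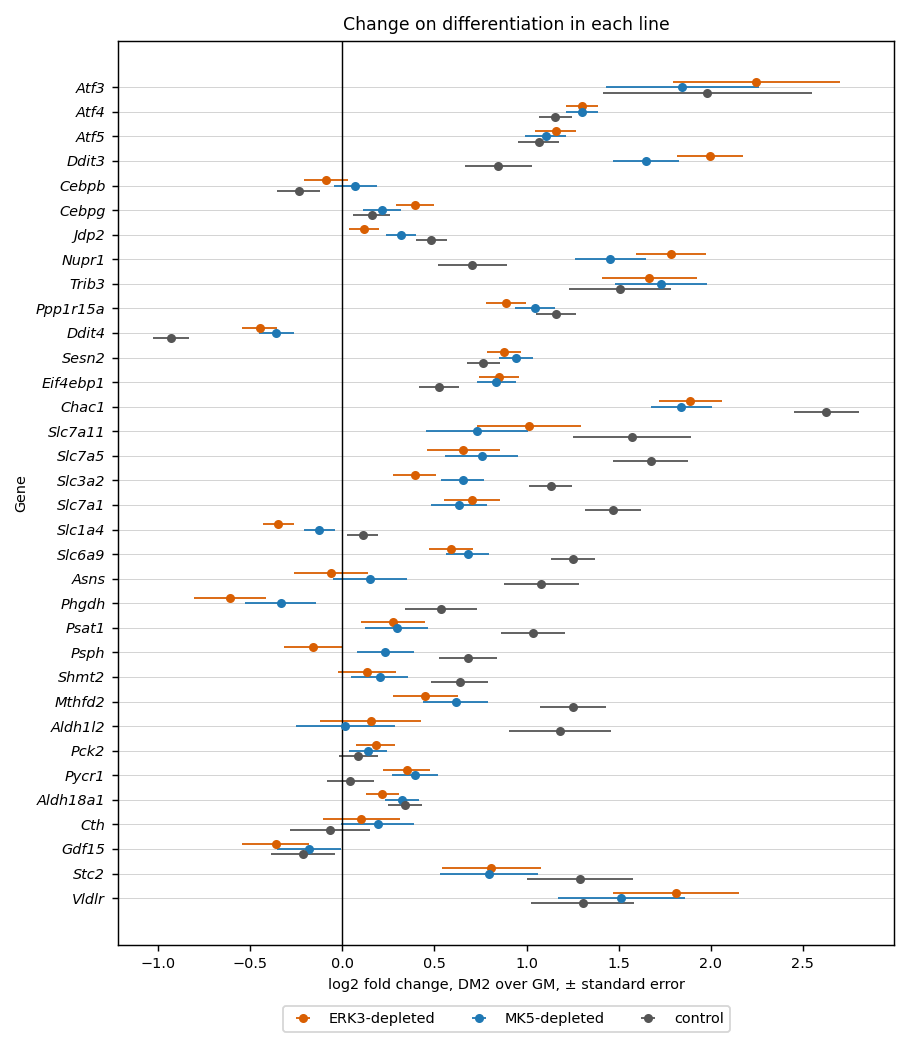
Log2 fold change on differentiation (DM2 over GM) of each tested member in the ERK3-depleted, MK5-depleted and control lines, with its standard error. Ddit3 and Nupr1 lie further right in the depleted lines, and Asns, Phgdh, Slc7a5 and Chac1 further right in control.

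The depleted lines were also set against each other, which the control libraries do not enter. No member was called between the MK5-depleted and ERK3-depleted lines in either medium by edgeR's quasi-likelihood test, where 0% of all genes were called. In GM 0 members and 1167 genes had an unadjusted p under 0.05, the smallest adjusted p of a member was 0.630, and log2 fold changes of MK5 over ERK3 ran from -0.25 to 0.88. At DM2 7 members and 2741 genes had an unadjusted p under 0.05, the smallest adjusted p was 0.144, and the folds ran from -0.58 to 0.48. DESeq2 and limma-voom also called 0 members in both media, while edgeR with no filter on low counts called 2 in GM and 10 at DM2, and the length and GC offsets with the library block 2 at DM2. With the library block Nupr1 was called lower in the MK5-depleted line at DM2 (log2 fold change -0.55, adjusted p = 0.0494), where it stood at 154, 149 and 117 CPM, against 206, 287 and 136 CPM in the ERK3-depleted line. Without ERK3-depleted DM2 library 3, 9 members and 3597 genes were called at DM2. A p that misses the threshold does not show that the lines act alike.

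Members with and without a CARE match in their promoter window had like medians in GM. For ERK3 the median log2 fold change was 0.40 in the 11 with a match and 0.38 in the 19 without, and for MK5 it was 0.51 and 0.45. At DM2 the medians were 0.18 with and 0.00 without a match for ERK3, and 0.38 and 0.17 for MK5. On differentiation they were 1.01 with and 0.39 without a match in the ERK3-depleted line, 0.73 and 0.62 in the MK5-depleted line, and 1.08 and 0.85 in the control line. These are descriptions with no test.

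Genes of the same pathway outside the list were counted in the same fits. Over all tested genes, 6.79% were called for ERK3 and 8.45% for MK5 in GM, and 55.8% and 45.1% at DM2. On differentiation of the control line 45.6% were called. The counts below are to be read beside these shares, and no list was tested as a set. Of 21 aminoacyl-tRNA synthetase and tRNA export genes, which load and move the carriers of amino acids, 7 were called in GM in the ERK3-depleted line and 8 in the MK5-depleted line, all of them higher. Aars led in both, with a log2 fold change of 0.50 for ERK3 and 0.59 for MK5. Next came Cars for ERK3 (0.42) and Vars for MK5 (0.51). At DM2 2 rose (Eprs 0.76) and 7 fell (Iars -0.76, Dars -0.67) for ERK3. For MK5 5 rose (Eprs 0.55) and 2 fell (Dars -0.64). On differentiation of the control line 11 rose and 2 fell, with Aars at 0.88. A further list of 35 genes held ATF4 targets and also other amino acid genes. Of these 4 rose and 3 fell for ERK3 in GM and 8 rose and 5 fell for MK5. Among those that rose were Adm2, a secreted peptide (1.41 for MK5), and the folate enzyme Shmt1 (0.69 and 0.77). At DM2 4 of these rose and 11 fell for ERK3 and 5 rose and 10 fell for MK5. Adm2 was higher in both depleted lines at DM2 (1.18 for ERK3 and 1.49 for MK5). Fgf21, a hormone of starvation, was lower in both at DM2 (-1.45 and -0.86), and it rose by 5.27 on differentiation of the control line.

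The kinases, eIF2 subunits and other core genes of the response, and the targets of the other branches of the unfolded protein response, were counted too. By edgeR's quasi-likelihood test 0 of 20 core genes were called in GM in either line (7 for ERK3 and 4 for MK5 at an unadjusted p under 0.05, 2 and 0 called by DESeq2, 0 and 0 by limma-voom). At DM2 6 core genes rose and 10 fell for ERK3 and 3 rose and 7 fell for MK5. Eif2s2, a subunit of eIF2, rose by 1.13 and 0.75, while another subunit, Eif2s1, fell for ERK3 (-0.46). The amino acid sensing kinase Eif2ak4 fell in both lines (-0.69 and -0.33). For ERK3 the endoplasmic reticulum kinase Eif2ak3 fell (-0.59) and the kinase Eif2ak2 rose (0.45). Of 20 genes of the IRE1 and ATF6 branches 0 were called in GM by edgeR (6 for ERK3 and 5 for MK5 at an unadjusted p under 0.05, 2 and 1 by DESeq2, 1 and 0 by limma-voom), and at DM2 4 rose and 12 fell for ERK3 and 3 rose and 8 fell for MK5. The IRE1 gene Ern1 fell by 0.96 and 0.80 on the log2 scale, and Atf6 by 0.70 and 0.65. Of 12 NRF2 targets 1 rose for ERK3 in GM (Hmox1, 0.33) and 2 for MK5 (Gclm 0.42, Srxn1 0.29). At DM2 2 NRF2 targets rose and 4 fell for ERK3, with Hmox1 and Gclm among those that fell, and 1 rose and 3 fell for MK5. Of 12 p53 targets 3 fell for ERK3 in GM and 4 for MK5, with Trp53inp1 at -0.78 for ERK3, and at DM2 2 rose and 5 fell for ERK3 and 3 rose and 6 fell for MK5. Of 8 mitochondrial stress genes 2 rose for MK5 in GM (Hspd1 0.54, Hspa9 0.42), and 0 were called for ERK3 by edgeR (6 at an unadjusted p under 0.05, 4 by DESeq2, 0 by limma-voom). At DM2 2 of these rose and 3 fell for ERK3 and 2 rose and 1 fell for MK5. Over all tested genes, 55.8% were called for ERK3 and 45.1% for MK5 at DM2, against 6.79% and 8.45% in GM. These lists, too, were not tested as sets.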

How the data were processed

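The deposited counts, raw and of uniquely mapped reads, came from STAR 2.5.1b (GRCm38; reads from bcl2fastq 2.17), as the submitters' processing notes name them, and their reverse-strand column was used because 92.8 to 95.3% of stranded counts lie there. Summary lines (21.7 to 35.8% of 23.6 to 31.2 M reads, M being 1e6) were left out. Libraries are stranded and poly-A selected, per the labels. RSEM 1.2.28 gave the deposited expected counts and TPM, per the submitters' processing notes, and were alternatives (expected counts were rounded first, and TPM were compared as deposited, with no scaling between libraries). Of 50600 identifiers 50376 matched GENCODE M21, which gave symbols.

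Genes were kept by filterByExpr and tested with edgeR 4.0.16 (R 4.3.3) in 1 robust quasi-likelihood model with a mean for each of 6 groups, 12 residual degrees of freedom and a common biological coefficient of variation of 0.11. Of 11 contrasts, each was adjusted over its 13939 genes by Benjamini-Hochberg. Standard errors are the absolute log2 fold change divided by the root of the F statistic. The method was tested on simulated data. No library copied another, since squared differences between replicates were 7.98 to 87.2 times the counting variance.

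The members and lists were chosen with earlier results of these data known. By rule the text names members called in a comparison and, called or not, Atf4, Atf5, Ddit3, Atf3, Trib3, Asns, Chac1, Slc7a11 and Ddit4, and up to 4 called genes of each pathway list with the largest fold change. Eif2s1 and Eif2ak2 are named beyond this rule, as genes that changed in the other direction. Counts of pathway lists leave out the 35 members, and some genes stand in several of these lists.

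Alternatives were DESeq2 1.42.0, limma 3.58.1 (voom on counts, and trend on log2(TPM + 1), keeping genes at 1 TPM or more in 3 libraries), RLE size factors, RSEM expected counts, 1 CPM in 3 libraries as the filter or none at all, unstranded counts, only the libraries of a contrast, length and GC offsets (splines with 5 degrees of freedom), a covariate for reads outside genes, the replicate number as a block, and libraries left out. Library numbers come from the labels. Same-numbered libraries deviated together, with every correlation over 0.1, for ERK3 against control in GM (0.155 to 0.290) and at DM2 (0.108 to 0.205), MK5 against control in GM (0.142 to 0.190), differentiation of the ERK3-depleted line (0.156 to 0.291) and MK5 against ERK3 at DM2 (0.282 to 0.498), so the blocked value is given there where it changes a call.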

Additional observations from a re-analysis of the deposited data

Results flagged for a closer look

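The change on differentiation differed between a depleted line and control for 15 members in the ERK3-depleted and 10 in the MK5-depleted line, each by the interaction term in edgeR at an adjusted p under 0.05. These are differences of log2 fold changes, depleted line minus control, and both lines share the control libraries. Over all tested genes 28.6% were called for ERK3 (14.6% larger and 14% smaller) and 18% for MK5 (8.54% larger and 9.48% smaller). The counts below are to be read beside these shares.

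Among the transcription factors Ddit3 responded more in both lines, by 1.15 for ERK3 and 0.80 for MK5. Nupr1 responded more for ERK3, by 1.08, and Jdp2 less (-0.36). Of the feedback and growth-control genes Ddit4 differed by 0.48 for ERK3 and 0.57 for MK5, a smaller fall than in control, and Chac1 by -0.74 for ERK3 and -0.79 for MK5.

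Of 6 transporters 5 were called with a smaller response for ERK3 and 3 for MK5, and none with a larger one. Slc7a5 differed by -1.02 for ERK3 and -0.92 for MK5, Slc7a1 by -0.77 and -0.84, and Slc6a9 by -0.66 and -0.57. Slc3a2 (-0.74) and Slc1a4 (-0.46) were called for ERK3.

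Of 11 enzymes 5 were called with a smaller response for ERK3 and 4 for MK5, and none with a larger one. Asns differed by -1.14 for ERK3 and -0.93 for MK5, Phgdh by -1.145 and -0.87, and Psat1 by -0.76 and -0.74. Psph (-0.84) and Mthfd2 (-0.80) were called for ERK3, and Aldh1l2 (-1.165) for MK5. With each of the 12 libraries of a comparison left out in turn, Asns, Ddit3, Ddit4, Nupr1, Phgdh, Psph, Slc1a4, Slc3a2, Slc6a9 and Slc7a5 were called every time for ERK3, and Ddit4 alone for MK5.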

How the results depend on the processing

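Of 3633 values recomputed for single genes, 3117 kept their direction and side of the threshold, 485 kept the direction but were no longer called, 14 became called and 17 changed sign. Leaving out 1 library gave 0 to 19 called members for ERK3 against control in GM, 11 to 20 at DM2, 0 to 21 for MK5 against control in GM and 10 to 14 at DM2. For differentiation the ranges were 20 to 22 in the ERK3-depleted, 19 to 24 in the MK5-depleted and 26 to 28 in the control line. For the difference of responses they were 10 to 18 for ERK3 and 1 to 14 for MK5, and for MK5 against ERK3 0 to 0 in GM and 0 to 9 at DM2. With limma-trend on unscaled TPM the members called were 0 for ERK3 and 4 for MK5 in GM, 9 for MK5 at DM2, and 15 and 13 for differentiation of the ERK3-depleted and MK5-depleted lines. The shift of the median of all genes on that scale was -0.46 and -0.29 for ERK3 and MK5 at DM2, -0.27, -0.15 and 0.12 for differentiation of the ERK3-depleted, MK5-depleted and control lines, and 0.17 for MK5 against ERK3 at DM2. Signs turned there for ERK3 at DM2 in Atf4 (-0.047), Cebpg (-0.185), Ddit4 (-0.037), Slc7a11 (-0.023) and Pck2 (-0.079), for MK5 at DM2 in Asns (-0.20) and Pycr1 (-0.0027), for MK5 in GM in Slc7a11 (-0.0020), for differentiation of the ERK3-depleted line in Pycr1 (-0.058), and for the ERK3 difference of responses in Ddit4 (-0.0017). With reads outside genes as a covariate 6 members were called for ERK3 at DM2 (2705 genes in all) and 0 for the ERK3 difference of responses (200 genes), and Slc3a2 (0.00079) and Asns (0.12) turned sign at DM2. Without the 4 DM2 libraries with most such reads these counts were 8 and 0, and 1 for MK5. Without strand Slc7a11 fell on differentiation (-0.61 in the ERK3-depleted, -0.37 in the MK5-depleted and -0.44 in the control line), as did Slc6a9 (-0.51 and -0.29 in the ERK3-depleted and MK5-depleted lines), where counts without strand were 4.54 to 45.9 times the reverse counts for Slc7a11 and 0.0963 to 0.524 times for Slc6a9. For MK5 against ERK3, no filter called 2 members in GM and 10 at DM2, and the length and GC offsets with the replicate block 2 at DM2. The cause of these changes was not tested. The replicate block gave 21 and 20 called members for ERK3 in GM and at DM2, 22 and 18 for MK5, 24, 23 and 27 for differentiation of the ERK3-depleted, MK5-depleted and control lines, 17 and 14 for the differences of responses, and 0 and 1 for MK5 against ERK3 in GM and at DM2. Same-numbered libraries did not all correlate over 0.1 in the other comparisons. These were MK5 against control at DM2, differentiation of the MK5-depleted and control lines, and MK5 against ERK3 in GM. In MK5 against control at DM2 (0.0553 to 0.165) and MK5 against ERK3 in GM (0.0704 to 0.344) each correlation was still above those of other numbers. With the block edgeR also called Slc7a11 (0.54), Slc7a1 (-0.32), Aldh18a1 (0.20) and Stc2 (0.63) for MK5 at DM2. For differentiation of the MK5-depleted line it also called Phgdh (-0.35). Pairing was not checked for the differences of responses as such, where the block also called Shmt2 (-0.52) and Aldh1l2 (-1.09) for ERK3 and Nupr1 (0.73), Slc3a2 (-0.48), Shmt2 (-0.46) and Mthfd2 (-0.66) for MK5. With 3 libraries a group, low genes such as Atf3, Slc7a11 and Vldlr have the widest errors.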
